A study of Mus musculus with 6 samples.

Results

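*Col14a1*, *Adam17*, *Pcsk6*, *Pik3cb*, *Fcho2*, *Arl15*, *Kdelr2* and *Ralgps2* are 8 of the 22367 protein-coding genes of the GENCODE annotation of the mouse genome build mm9. Their products work in the extracellular matrix, in the cleavage of secreted or membrane-anchored proteins, and in signalling and traffic at membranes. They were selected on measured peak scores, since the study named each as a gene near a ChIRP-seq peak of the long noncoding RNA *LncRNA-HIT* in the embryonic limb. Such peaks had to reach a p-value of 5.9e-57, a −log10(p) of 56.23, to lie within 25 kb of a gene and to have no counterpart in glial cells. The presence of a strong limb peak at these genes is therefore given here as a description, and nothing is tested with it.

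*LncRNA-HIT* is transcribed between *Hoxa11* and *Hoxa13*, genes that pattern the distal limb. ChIRP pulls down chromatin with biotin-tagged DNA probes complementary to 1 RNA, and the DNA that comes along is sequenced. The method reads where an RNA contacts chromatin, and a probe can also capture DNA that resembles the probe itself, which is why a cell without the RNA serves as a control.

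The limb samples were distal limb buds, the autopod region, of Swiss Webster mice at E 11, pooled from about 2000 limb buds for the 200 mg of cells of each assay. The control was a murine glial cell line, labelled as embryonic whole brain of the same strain and stated not to express the RNA. Its samples are labelled E 11.0 while the protocol gives E15.5, and this conflict was not resolved. In each tissue an odd and an even set of probes were hybridized separately and 1 input was sequenced, which makes 6 libraries. The odd and even tracks were merged by their minimum before peaks were called, so each tissue has 1 peak list, no replicates and no test across samples. The depth behind each peak is unknown, and tissue and cell source cannot be told apart. The files hold no expression values, so the tissue labels could not be checked against marker genes. The limb list held 2880 peaks with a −log10(p) of 5.17 to 310, of which 774 reached the study threshold, and the glial list held 2919 peaks of 5.82 to 317, of which 700 did.

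The sequences below were taken from mm9 and from the deposited probes, to show where the peaks at these genes resemble a probe. Each probe is written 5′ to 3′, and the peak window under it is read on the strand that reads as the probe, with 10 bases on each side of the 20 bases that line up with it. Capitals mark the longest unbroken run of identical bases. The 5 genes whose peaks held a run of at least 11 bases are shown, followed by *Pik3cb*, whose run was the longest of the other peaks.
*Col14a1*, probe 16: gtgaggGCTGGGAGTGAAtg
*Col14a1*, chr15:55150400-55150439, plus strand: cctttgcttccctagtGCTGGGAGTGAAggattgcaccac
*Fcho2*, chr13:99497378-99497417, plus strand, probe 16: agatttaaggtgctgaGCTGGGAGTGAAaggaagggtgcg
*Fcho2*, probe 4: cacatgCAGACTTAAGAGca
*Fcho2*, chr13:99497763-99497802, plus strand: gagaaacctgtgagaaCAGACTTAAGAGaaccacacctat
*Adam17*, probe 9: gaCCAATTCATGAGctgtca
*Adam17*, chr12:21342604-21342643, plus strand: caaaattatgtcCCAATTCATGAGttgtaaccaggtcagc
*Pcsk6*, probe 12: atcttCACTCGTCAGCaatt
*Pcsk6*, chr7:73046253-73046292, plus strand: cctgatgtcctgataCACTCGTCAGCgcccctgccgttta
*Kdelr2*, probe 8: GTCAAGGTCACaaattgtct
*Kdelr2*, chr5:144158394-144158433, plus strand: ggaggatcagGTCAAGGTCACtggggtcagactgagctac
*Pik3cb*, probe 25: acacaatatcTCCTGTGCTG
*Pik3cb*, chr9:98991728-98991767, minus strand: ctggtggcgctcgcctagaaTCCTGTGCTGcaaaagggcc
The peaks of *Col14a1* and *Fcho2* held the same 12 bases of probe 16.

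Each of the 8 genes had a limb peak at the study threshold within 25 kb, a state shared by 2.84% of all protein-coding genes and 5.07% of the 4519 such genes between 50 and 400 kb in length, the class of 7 of the 8, and this follows from how they were chosen. In all, 10 limb peaks lay within 100 kb of the 8 genes, and 7 genes had 1 each. The strongest peak of each gene had a −log10(p) between 71.1 (*Arl15*) and 172 (*Fcho2*), with a median of 107, against a median of 71.9 over the 773 limb peaks at the threshold outside the *LncRNA-HIT* locus. The member peak nearest above the threshold was that of *Arl15*, and the nearest below it were 14.7 and 14.4, both beside *Pik3cb*, so no listed limb peak near these genes lay close to the limit. In 6 genes the strongest peak was inside the gene, 5 times in an intron and once in a coding exon, and in the other 2 it was upstream. A threshold peak inside the gene was found for 1.48% of all protein-coding genes and for 3.58% of those between 50 and 400 kb. The 8 were chosen for a threshold limb peak within 25 kb, and of the 635 genes with one, 331 had one inside the gene. Of the 229 such genes between 50 and 400 kb, 162 did. Of the limb peaks at the threshold, 47.6% overlapped a protein-coding gene.

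**Figure D1:**
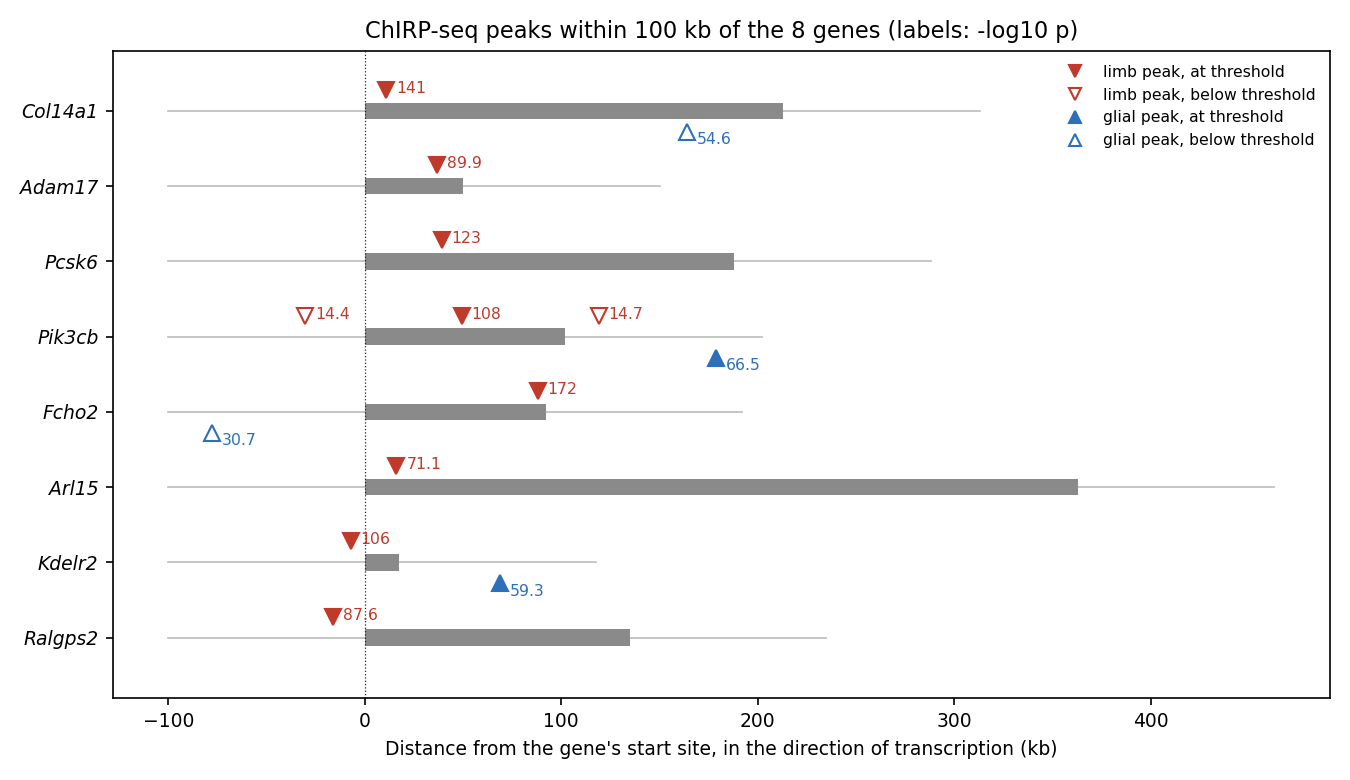
Limb peaks (red) and glial peaks (blue) within 100 kb of each gene, drawn at the distance of the peak centre from the start site in kb, in the direction of transcription. Grey bars are gene bodies, filled symbols reached the study threshold and labels give −log10(p). In 6 of the 8 genes the strongest limb peak lies inside the gene body.

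*Col14a1* encodes a collagen that associates with the surface of collagen fibrils. Its limb peak, chr15:55149947-55150428, lay in intron 1 of 47, 10.9 kb from the start site of a gene of 213 kb, with a −log10(p) of 141 and rank 32 of the limb list. It was the only limb peak within 100 kb. A glial peak of 54.6, below the threshold, lay far downstream in intron 37, 152 kb from the limb peak. *Col14a1* was the 1 gene of the 8 with a glial peak inside it, against 4.22% of all protein-coding genes and 11.5% of those between 50 and 400 kb. The limb peak held 12 bases of probe 16 at its edge, 1 base from the end of the peak, so the last base of that probe lines up outside the peak. A separate stretch, 15 of 20 bases identical to probe 14 on the minus strand, lay 128 bases into the peak.

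The 2 protease genes each had 1 limb peak and no glial peak within 100 kb. *Adam17* encodes the membrane metalloprotease that sheds TNF and ligands of the EGF receptor from the cell surface. Its limb peak, chr12:21342321-21342753, had a −log10(p) of 89.9 (rank 141) and lay 37.0 kb from the start site, 73.7% of the way along the gene. The start site of *Iah1* was nearer, at 20.3 kb. It was the only one of the 8 that overlapped a coding exon, as did 9.31% of the limb peaks at the threshold. The exon, number 12 of 20, spans chr12:21342494-21342646 and is printed on the minus strand, that of the gene, with the 12 bases shared with probe 9 in capitals.
*Adam17* exon: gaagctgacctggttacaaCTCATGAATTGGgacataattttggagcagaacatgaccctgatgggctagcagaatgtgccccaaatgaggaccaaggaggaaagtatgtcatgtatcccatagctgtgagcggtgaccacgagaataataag
In its reading frame the exon holds the zinc-binding histidine motif of the catalytic site, found once in the whole coding sequence, and 10 of the 12 shared bases fall within the 33 bases of that motif. Because *Adam17* is on the minus strand, probe 9 is complementary to its transcript at these bases. Over all 20 bases this site was identical to probe 9 at 16, the best probe match among the 8 peaks.

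*Pcsk6* encodes a proprotein convertase that activates precursors of the TGF-β family. Its limb peak, chr7:73045896-73046353, lay in intron 1 of 21, 39.1 kb from the start site, with a −log10(p) of 123 (rank 50). The nearest glial peaks to the *Pcsk6* and *Adam17* peaks were 663 and 686 kb away. The *Pcsk6* peak had the highest GC content of the 8, at 51.1%. None of its 24-base words was found a second time in the genome, as for 38.7% of the limb peaks at the threshold. Its 11 bases of probe 12 lay 148 bp from the peak centre.

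*Pik3cb* encodes the p110β catalytic subunit of class I PI3-kinase. It was the only one of the 8 with more than 1 limb peak. The strongest, chr9:98991321-98992003, lay in intron 6 of 23, near the middle of the gene at 49.4 kb from the start site, with a −log10(p) of 108 (rank 74). The other 2 were weak. One of 14.7 (rank 2326) lay 17.2 kb downstream in *Gm1123*, and one of 14.4 (rank 2385) lay 30.1 kb upstream. Words of 24 bases found more than once in the genome made up 9.50% and 21.9% of these flanking peaks and 0 of the strong one. A glial peak of 66.5, at the threshold, lay 76.5 kb downstream of the gene and 129 kb from the strong limb peak.

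*Fcho2* encodes an F-BAR protein of early clathrin-coated pits. Its peak, chr13:99496871-99497999, was the strongest of the 8 (−log10(p) 172, rank 24) and the widest, at 1129 bp against a median of 433 bp for limb peaks at the threshold. It lay near the end of the gene, in intron 24 of 25 and 88.0 kb from the start site. As in *Adam17*, the start site of another gene was nearer, here that of *Tmem171*, 32.6 kb away. Both runs of 12 bases in this peak came from the even probe set, from probes 4 and 16. A glial peak of 30.7 lay 77.5 kb upstream, in *Tnpo1*, the gene of a nuclear import receptor.

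*Arl15* encodes an Arf-like small GTPase and is the longest of the 8 genes, at 363 kb. Its limb peak, chr13:114600471-114601171, was the weakest of the 8 (−log10(p) 71.1, rank 399). It lay in intron 1 of 4, 16.1 kb from the start site, and the nearest glial peak was 2041 kb away. The longest run shared with any probe was 9 bases.

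*Kdelr2* encodes a receptor that returns escaped endoplasmic reticulum proteins from the Golgi. It is the shortest of the 8, at 17.5 kb. Its limb peak, chr5:144158096-144158578, lay 6.92 kb upstream with a −log10(p) of 106 (rank 79). It was closer to the neighbouring gene *Grid2ip*, at 4.26 kb, although the nearest start site was that of *Kdelr2*. In the 7 other genes the member itself was the nearest coding gene. Repeated words made up 16.7% of the *Kdelr2* peak, the highest share among the 8. A glial peak of 59.3, at the threshold, lay 51.2 kb downstream in *Daglb*, a diacylglycerol lipase gene, 75.6 kb from the limb peak.

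*Ralgps2* encodes an exchange factor for Ral GTPases. Its limb peak, chr1:158885622-158886253, lay 15.9 kb upstream with a −log10(p) of 87.6 (rank 164), and the nearest glial peak was 250 kb away. It was the only limb peak listed within 100 kb of the gene. Its deposited score is not the one printed by the study beside this gene, so it may not be the peak for which *Ralgps2* was named. This peak had the shortest probe run of the 8, at 8 bases.

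**Figure D2:**
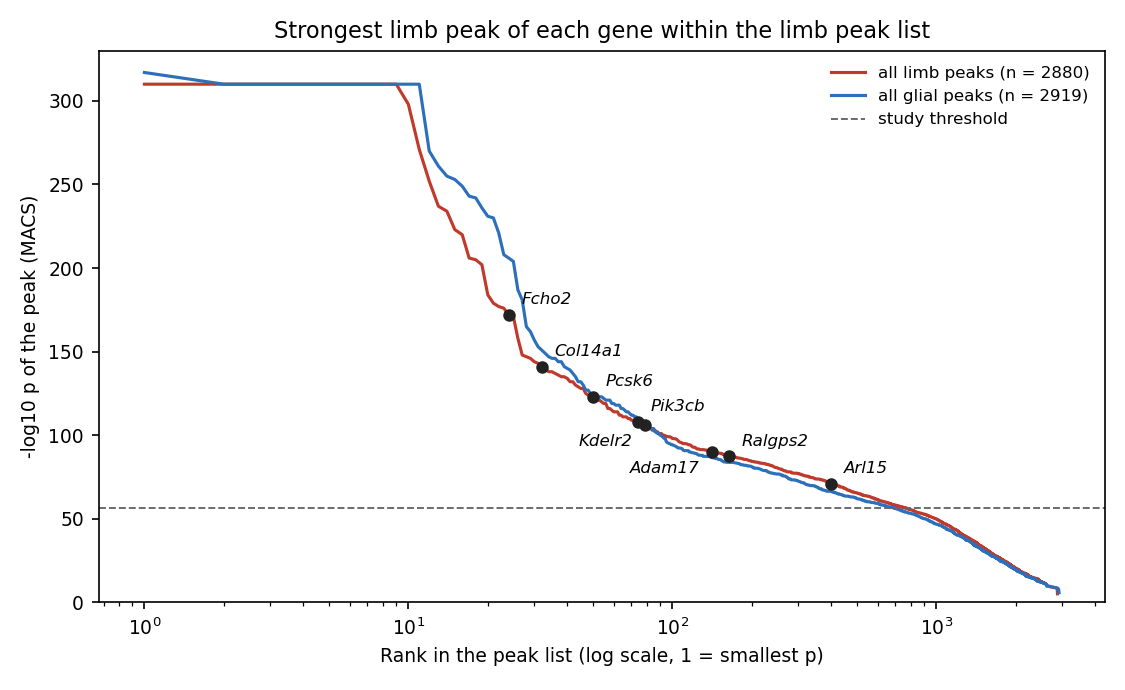
−log10(p) of every limb and glial peak against its rank on a log scale, with the strongest limb peak of each gene as a black point and the study threshold (56.23) dashed. The points run from *Fcho2* at rank 24 to *Arl15* at rank 399 of 2880, all above the threshold.

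None of the 8 strongest limb peaks overlapped a glial peak, against 7.12% of the limb peaks at the threshold, and the lack of a glial counterpart was part of the choice. Only the *Kdelr2* peak had a glial peak within 100 kb of the peak itself. Of the limb peaks at the threshold, 24.8% did, a share that includes the 7.12% that overlapped a glial peak. Counted from the gene bodies, 4 of the 8 genes had a glial peak within 100 kb (*Col14a1*, *Pik3cb*, *Fcho2* and *Kdelr2*), against 20.9% of all protein-coding genes and 28.3% of those between 50 and 400 kb. The 4 glial peaks had a −log10(p) of 30.7 to 66.5, and 2 of them, near *Pik3cb* and *Kdelr2*, reached the threshold, as some glial peak within 100 kb did for 5.41% of all protein-coding genes and 7.97% of those between 50 and 400 kb. All 4 lay below the weakest strongest limb peak in score. The limb peaks were chosen on their score and the glial peaks were not, so the choice itself favours this order. The lists also came from separate libraries of unknown depth, and this order was not tested.

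The sequence of the peaks was not used to choose the genes, but their scores were. A run of at least 11 bases identical to a probe was found in 5 of the 8 strongest peaks. The same held for 21.7% of the 773 limb peaks and 10.4% of the 699 glial peaks at the threshold outside the locus. A run of at least 12 bases was found in 3 of 8, against 11.3% and 3.72%. Over all 2879 limb peaks outside the locus, weaker by median score, 17.2% held a run of 11 and 8.02% one of 12. No share was computed among peaks of like score. The length of 11 was chosen after the values had been seen. With a match of 15 of 20 bases that need not be adjacent, 2 of 8 peaks (*Col14a1* and *Adam17*) matched, against 21.3% of limb and 15.6% of glial peaks at the threshold. Stretches of the probed region between the probe sites, 595 bases in all, gave runs of at least 11 bases in 2 of 8 peaks. The share was 23.7% of limb and 26.9% of glial peaks. In these 2, *Col14a1* (12 bases) and *Kdelr2* (11 bases), this run was as long as the longest probe run. The peaks of these genes were wider than most, with a median of 558 bp against 433 bp for limb peaks at the threshold. Any part of width in these runs was not tested. Below 450 bp the 1 member, *Adam17*, held a run of 11, against 18.5% of 551 limb and 10.3% of 504 glial peaks. Among peaks of 450 to under 550 bp, all 3 members (*Col14a1*, *Pcsk6* and *Kdelr2*) held a run of 11, against 35.9% of 78 limb and 12.5% of 48 glial peaks. Among those of 550 to under 750 bp, 0 of 3 members (*Pik3cb*, *Arl15* and *Ralgps2*) did, against 28.1% of 64 limb peaks and 0 of 50 glial peaks. With 8 genes these shares describe the peaks, and the part of probe-like sequence in their capture was not tested.

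**Figure D3:**
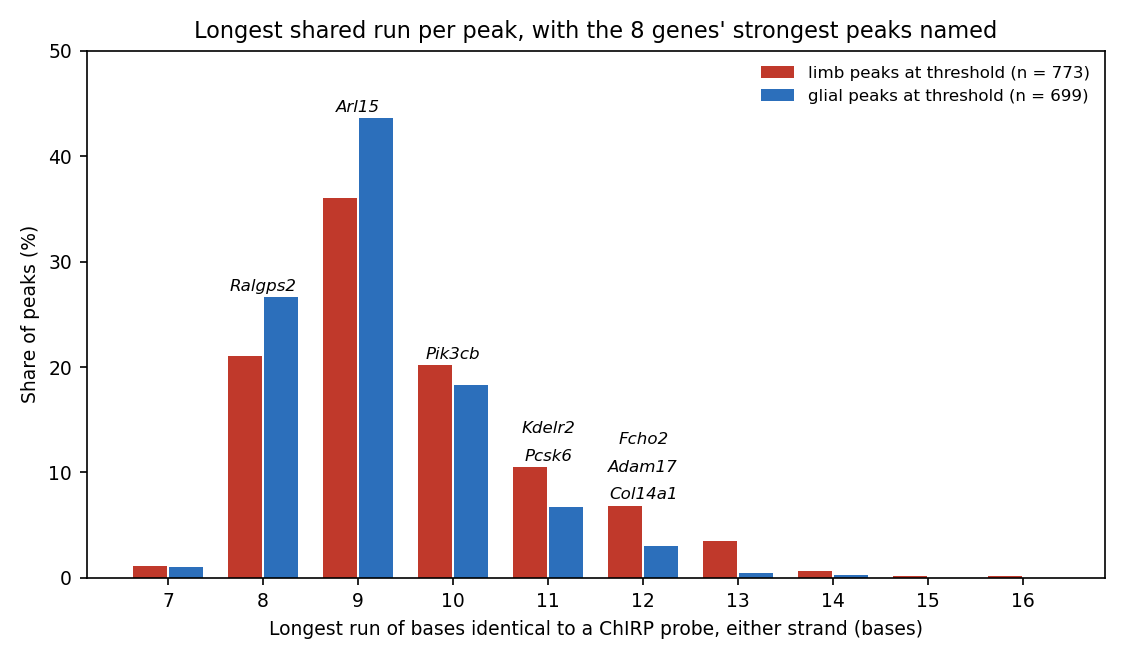
Longest unbroken stretch that a peak has in common with any probe, on either strand (bases), as the share of limb (red, n = 773) and glial (blue, n = 699) peaks at the threshold outside the locus, with the 8 strongest peaks named above the length they held. *Col14a1*, *Adam17* and *Fcho2* held 12 bases and *Ralgps2* held 8.

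None of the 8 strongest peaks held a run of at least 11 bases from both probe sets. Of the limb peaks at the threshold, 1.81% held such a run from each set. In *Col14a1*, *Pcsk6*, *Fcho2* and *Kdelr2* the run of 11 or 12 bases came from an even probe and in *Adam17* from an odd one. The odd and even sets were not compared over all limb peaks, so nothing is read from this split. With runs of at least 10 bases, 1 of the 8 peaks, that of *Kdelr2*, held one from each set, against 7.76% of the limb peaks. In *Kdelr2* 10 bases of the odd probe 7 lay over the run of the even probe 8, and 10 bases of the odd probe 23 lay elsewhere in the peak. The 12 bases shared by *Col14a1* and *Fcho2* with probe 16 occur at 691 places in mm9, in 10 of the 773 limb peaks, these 2 included, and in 0 of the 699 glial peaks. Those of *Adam17* with probe 9 occur at 862 places, in 6 limb peaks and in 0 glial peaks. The 12 bases of *Fcho2* with probe 4 occur at 469 places and in 1 limb peak, that of *Fcho2* itself, and 0 glial peaks. The 11 bases of *Kdelr2* with probe 8 occur at 1886 places, in 12 limb peaks and 2 glial peaks, and those of *Pcsk6* at 202 places, in 2 limb peaks and 0 glial peaks. The words were taken from limb peaks, so each limb count includes the peak it came from. The peaks at the threshold cover only a small part of mm9, so most places of any such run lie outside them. No expected count per list was computed, and the part of these runs in capture was not tested. Relative to the gene, the probe reads as the strand of the gene's RNA in *Col14a1*, *Pcsk6*, *Pik3cb* and *Kdelr2* and is complementary to it in *Adam17*, *Fcho2*, *Arl15* and *Ralgps2*, for the runs drawn in the plot of run positions. In *Kdelr2* and *Ralgps2* the peak lies outside the annotated transcript.

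**Figure D4:**
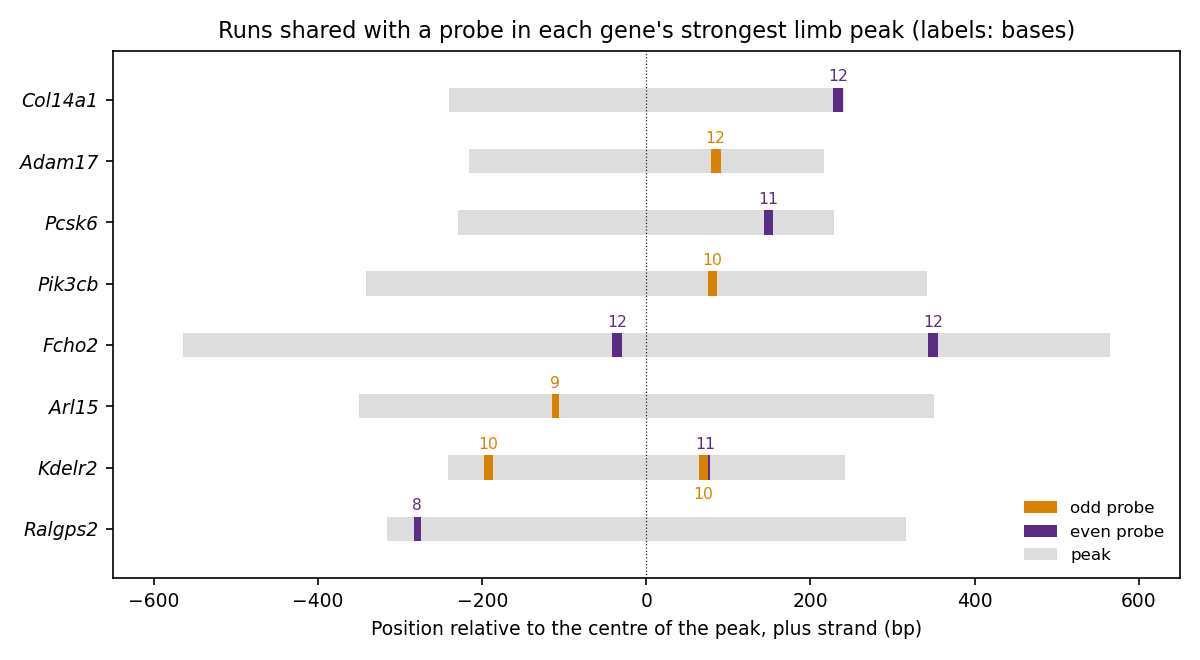
Position of the runs in the strongest limb peak of each gene, in bp from the peak centre on the plus strand, coloured by probe set, with their length in bases. All runs of at least 10 bases are drawn, and 1 longest run for *Arl15* and *Ralgps2*; that of *Col14a1* sits at the very edge of the peak.

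The runs of at least 11 bases lay 72.0 bp from the peak centre in *Kdelr2*, 84.5 bp in *Adam17*, 148 bp in *Pcsk6* and 234 bp in *Col14a1*. In *Fcho2* the run of probe 16 lay 35.5 bp and that of probe 4 lay 350 bp from the centre. With the run of probe 4 taken for *Fcho2*, 2 of the 5 peaks had their run within 100 bp of the centre. Of the limb and glial peaks at the threshold with such a run, 44.6% and 35.6% did. The median GC content of the 8 peaks was 47.3%, against 44.4% for limb and 42.3% for glial peaks at the threshold, and ran from 41.3% (*Adam17*) to 51.1% (*Pcsk6*). Repeated words made up a median of 1.29%, against 1.47% and 3.17%. They were at 0 in *Adam17*, *Pcsk6* and *Pik3cb*, as in 38.7% of the limb peaks at the threshold. A stretch of 4 GA units was present in *Pik3cb* and *Fcho2* (2 of 8, against 11.9% of limb and 11.2% of glial peaks), and a stretch of 4 AC units in *Fcho2* (1 of 8, against 18.5% and 19.0%). The 4 glial peaks near these genes held runs of 8 to 10 probe bases. None held a run of 11, which 8.46% of all 2918 glial peaks outside the locus did.

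The families of the 8 genes were examined through lists of related collagens, proteases, kinases, GTPases and coat proteins, 96 annotated genes beside the 8. Of these, 7 had a limb peak at the threshold within 25 kb and 24 any glial peak within 100 kb, against 2.84% and 20.9% of all protein-coding genes. For protein-coding genes between 50 and 400 kb the shares were 5.07% and 28.3%, and the 96 were not matched for length. Among the collagens 1 of 17 had a threshold peak within 25 kb, *Col5a3*, with a −log10(p) of 61.1 in an intron. The study listed primers for *Col5a3* among its peak-associated genes, so this gene is not independent of the choice of the 8. Among 8 other ADAM proteases it was *Adam12*, a meltrin expressed in muscle and mesenchyme, with 3 intronic limb peaks of 48.4, 68.3 and 24.4 and a glial peak of 45.3, also intronic. The peak of 68.3 held a run of 13 probe bases. Of 8 other proprotein convertases, 0 had a limb peak at the threshold within 25 kb and 5 had a glial peak within 100 kb. Among 8 other class I PI3-kinase genes 1 had a threshold limb peak within 25 kb. This was *Pik3r1*, a regulatory subunit that partners p110 proteins, with a limb peak of 78.4 at 4.05 kb upstream that held a run of 12 bases. A glial peak of 40.7 lay 15.3 kb downstream of it. Of 18 other clathrin-coat and F-BAR genes 1 had a threshold limb peak within 25 kb. This was *Ap2a2*, a subunit of the clathrin adaptor AP-2, with a peak of 79.2 at 13.9 kb downstream. None of 20 Arf and Arl genes other than *Arl15* had a limb peak at the threshold within 25 kb.

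The closest relatives of *Kdelr2* and *Ralgps2* were in this group. *Kdelr1* had a limb peak of 56.7 at 20.3 kb upstream, just above the threshold, and *Kdelr3* one of 60.5 on a coding exon, with 11 probe bases. All 3 KDEL receptor genes thus had a threshold limb peak within 25 kb, *Kdelr2* by choice, and each also had a glial peak within 100 kb. They were listed with the COPI coat genes. Of the 10 genes in that list beside *Kdelr2*, only these 2 had such a limb peak, and 4 had a glial peak within 100 kb. The shares over all protein-coding genes were 2.84% and 20.9%. Among 7 other genes of Ral GTPases and their exchange factors 1 had a threshold limb peak within 25 kb, *Ralgps1*. It had limb peaks of 84.0 and 67.1 in introns, and a glial peak of 52.9, below the threshold, at 8.37 kb upstream. These counts are a description of small families, and no test was made of them.

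For *Col14a1* and *Pik3cb* the study also read H3K27ac, a histone mark of active enhancers, with primers of its own. The primers are shown with their mm9 position, since they tell which DNA that assay read.
*Col14a1*, forward: CATTCCTCTTAGCAGTTTGGGAGGA
*Col14a1*, reverse: CAAAAGGAACTTAAAGATAGGCTCTCTGC
*Pik3cb*, forward: CACGTCCCCCTGCCCTCT
*Pik3cb*, reverse: AAAACCATCCTCTGCCAAAAATCA
The *Col14a1* product spans chr15:55149479-55149568, 90 bases in the same intron as the limb peak and 0.379 kb from it. The *Pik3cb* product spans chr9:98989732-98989852, 121 bases at 1.47 kb from its peak. The study placed these primers on H3K27ac sites of an earlier limb dataset that lay near its ChIRP peaks, not on the ChIRP peaks themselves. Neither product overlapped the deposited ChIRP peak. The acetylation values and the expression of the 8 genes after siRNA treatment against *LncRNA-HIT* were not analysed here.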

How the data were processed

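The authors mapped ChIRP-seq reads uniquely to mm9 with Bowtie (0.12.9 per the submitters' processing notes), normalized them to total reads, merged odd and even tracks by the minimum and called peaks against input with MACS, whose version is not given in the sources used here. The deposited score of each peak, made by the authors' caller, is 10 times −log10 of its p-value, and was divided by 10. The deposited probe file gives 25 sequences (13 odd and 12 even) and no measurements. Depth is unknown, so no interval was computed.

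The 8 genes and all lists were chosen with earlier results of these data known. Every peak within 100 kb of a gene body (widest span of all transcripts) was listed and placed on the transcript with the longest coding sequence. Named were the 8 genes, genes overlapped by a listed peak, and related genes with a threshold limb peak within 25 kb. *Grid2ip*, *Iah1* and *Tmem171* were named as nearest neighbours after their values were seen. Peaks were compared with probes on both strands, by run and by ungapped match of 15 of 20 bases, and their 24-base words were counted in mm9. The study's primers were matched exactly to mm9 around each gene. A related-gene list held 107 symbols, of which 104 were annotated. Samples were grouped by title. Alternatives were other distances, p-values, overlaps, match lengths and windows. The procedures were tested on simulated data. Python 3.11.15, NumPy 2.4.6, numba 0.67.0, pysam 0.24.0 and matplotlib 3.10.9 were used.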

Additional observations from a re-analysis of the deposited data

How the results depend on the processing

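Of 26 alternatives over 8 results, 16 stayed within 1.5 times the count, or within 1 SD over the peaks, and 10 moved further. With a p-value of 1e-100 or smaller, the limb peaks within 100 kb fell from 10 to 5 and the genes with a threshold limb peak within 25 kb from 8 to 5. The glial peaks within 100 kb numbered 4, and 1 within 25 kb, 1 within 50 kb and 2 at the study threshold. The genes with a glial peak within 100 kb likewise went from 4 to 1 within 25 kb and to 2 at the study threshold. A probe match of 15 of 20 bases was held by 2 strongest peaks, one of 14 of 20 bases by 4, one of 17 of 20 bases by 0, and a run of 11 identical bases by 5. That run length was added after seeing the data, as was a run of 12 with the whole probe inside the peak, held by 2 peaks because that of *Col14a1* reaches past the edge. No limb peak near the 8 genes overlapped a glial peak or had one within 10 kb. No paired analysis was possible because the odd and even probe sets were merged into 1 list per tissue before deposit. The depth of the libraries, which limits how many peaks reach a given p-value, is unknown.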
